A study of Homo sapiens with 12 samples.

Results

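The comparison described here asked whether EVI1 overexpression moved the same genes in the same direction under 2 cell line labels. RNA sequencing had been done on 12 libraries in 4 groups of 3: K562 control (given as wild type), K562 overexpressing EVI1, and the wild-type control and EVI1 overexpression groups that carry the MOLM14 label. All groups are human cell lines, and no agent, time or allele beyond EVI1 overexpression was labelled. All 12 libraries of the series entered the comparison, which was the EVI1 effect under the MOLM14 label minus the EVI1 effect in K562. Of the 58191 rows of the expression table, the 5510 before the first identifier for a pseudoautosomal gene copy on chromosome Y could be used for both labels, and 3697 of these genes passed the expression filter. K562 cells descend from a chronic myeloid leukaemia and keep traits of red cell and platelet precursors. MOLM14 cells come from a monocytic acute leukaemia and carry a KMT2A fusion together with an internal tandem duplication in FLT3. The series title speaks of venetoclax, a BCL2 inhibitor, and capivasertib, an AKT inhibitor, but no library was labelled as drug-treated. How EVI1 was introduced, under which promoter, and whether cells were pooled or grown from single clones was not given in the sources used here. Nothing in the labels says that replicates came from separate cultures, so p-values measure the spread between these libraries, which may be technical.

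EVI1 is a zinc finger transcription factor made from the MECOM gene, active in blood stem cells and overexpressed in a group of myeloid leukaemias with poor outcome. The programmes that recur below work as follows. In the integrated stress response, kinases that sense amino acid shortage, haem shortage or misfolded protein slow translation and raise the factor ATF4, which switches on amino acid synthesis, amino acid transport and tRNA charging genes. Ribosome biogenesis takes place in the nucleolus, where ribosomal RNA is transcribed by RNA polymerase I, modified and processed, and its genes are well-known targets of MYC. The DNA replication genes, many of them E2F targets, are switched on as cells pass from G1 into S phase.

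The cell line label was checked against marker genes before any result. Of 25 MOLM14 markers in the usable rows, 15 stayed below 1 FPKM (fragment counts scaled to transcript length and library size) in all 12 libraries, among them FLT3, MPO, CTSG, FCN1, HOXA5, HOXA6, HOXA7 and HOXA9, which were at or near 0. Of the 25, 7 reached a mean of 1 FPKM or more in controls labelled MOLM14, against 5 in each other group. LYZ, CD33, SPI1, TYROBP and PTPRC were higher in these controls than in K562 control. Of 12 erythroid and megakaryocytic markers of K562, 10 reached a mean of 1 FPKM or more in both groups labelled MOLM14. GATA1, the master erythroid factor, stood at 107, 123 and 109 FPKM in the controls labelled MOLM14 and at 141, 150 and 145 FPKM in the EVI1 libraries with that label. RHAG, a red cell membrane protein, stood at 362, 368 and 348 FPKM and at 298, 306 and 291 FPKM in the same libraries. Most markers therefore went against the MOLM14 label in both of its groups, and "labelled MOLM14" is used throughout for that reason. Summed over the list, MOLM14 markers reached 86.9 to 89.6 FPKM in K562 control, 103 to 123 FPKM in K562 EVI1, 220 to 251 FPKM in controls labelled MOLM14 and 148 to 162 FPKM in EVI1 libraries labelled MOLM14. Across genes tested, EVI1 libraries labelled MOLM14 correlated with K562 control libraries at r of 0.953 to 0.968, and controls labelled MOLM14 did so at 0.908 to 0.941, against 0.937 to 0.955 between K562 EVI1 and K562 control. Which line these libraries came from was not tested.

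Deposited FPKM summed over the usable rows to between 222410 and 238827 per K562 library and to between 195471 and 210058 per library labelled MOLM14. The columns of the 2 labels appear to come from separate normalization runs, so levels are set side by side without a test, and only changes within a label and the difference of those changes were tested. FPKM values do not give the number of reads behind a gene, so no counting interval is printed. Markers of intestinal epithelium were also looked at because the extraction text names mouse small intestine: of 8 in the usable rows, 6 were below 1 FPKM in all 12 libraries, and the summed level of the list, 406 to 452 FPKM in K562 control, came from KRT18 and EPCAM.

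MECOM, the targeted gene (chromosome 3, 169083499 to 169663618 in GRCh38), rose under both labels by nearly the same amount. Its level was 14.6, 11.2 and 10.9 FPKM in K562 control, 25.9, 23.9 and 22.1 FPKM in K562 EVI1, 9.66, 9.02 and 8.55 FPKM in controls labelled MOLM14, and 17.8, 18 and 16.9 FPKM in EVI1 libraries labelled MOLM14. Under each label all 3 EVI1 libraries lay above all 3 controls. The rise was 0.93 log2 units in K562 (SE 0.10) and 0.88 under the MOLM14 label (SE 0.10), with limma adjusted p of 2.6e-06 and 4.8e-06. The difference between the effects was -0.04 log2 units (SE 0.14, limma adjusted p = 0.81). Every effect is a difference between group means of log2(FPKM + 1); adding 1 makes the changes of genes with low FPKM look smaller than they are. A gene is said to rise, fall or differ only where the Benjamini-Hochberg adjusted p of the limma test over all 3697 genes was under 0.05.

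Most genes tested responded differently under the 2 labels. The difference of EVI1 effects was called for 2400 genes, 64.9% of those tested, of which 1262 (34.1%) were higher and 1138 (30.8%) lower under the MOLM14 label than in K562, and 2509 genes had an unadjusted p under 0.05. The difference was at least 1 log2 unit for 689 genes, 302 higher and 387 lower. In K562 itself 1049 genes rose (28.4%) and 1140 fell (30.8%), together 59.2% of genes tested. Under the MOLM14 label 1166 rose (31.5%) and 1001 fell (27.1%), together 58.6%. EVI1 and control libraries did not overlap for 62.9% of genes in K562 and for 65.1% under the MOLM14 label. Both effects were called for 1391 genes, which was 63.5% of the K562 calls and 64.2% of the calls under the MOLM14 label.

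Among these 1391 genes opposed changes outnumbered shared ones. The effects had opposite signs for 1001 genes, which is 72.0% of these and 27.1% of genes tested, and the same sign for 390 (10.5% of genes tested). Of the opposed genes, 448 rose in K562 and fell under the MOLM14 label (12.1% of genes tested), and 553 fell in K562 and rose under the MOLM14 label (15%). The difference itself was called for all 1001. Which of these classes was the larger depended on the scaling: rescaled to a common sum within label, they held 553 and 449 genes. Shared rises numbered 216 (5.84%) and shared falls 174 (4.71%). Where both effects reached 1 log2 unit, 49 genes were opposed (1.33% of genes tested) and 19 were shared (0.514%), and 41 of the 49 rose in K562 and fell under the MOLM14 label. Across all 3697 genes the effects had a Pearson r of -0.22 and a Spearman rho of -0.31 and the same sign in 38.7% of genes, a description across genes, which are not independent replicates. Of the other called differences, 613 belonged to genes changed in K562 alone, 584 to genes changed under the MOLM14 label alone, 135 to shared changes of unequal size and 67 to genes with neither effect called.

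**Figure D1:**
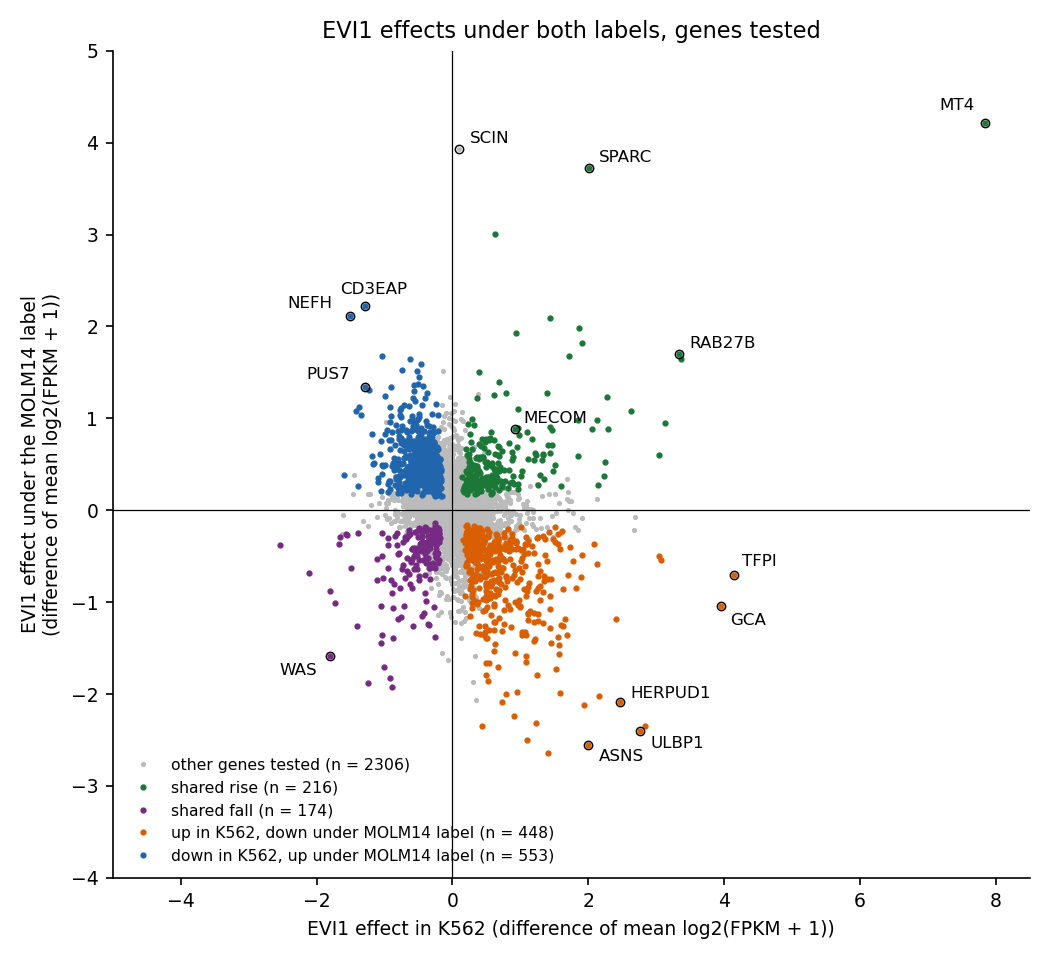
Each point is 1 of 3697 genes tested, with the EVI1 effect in K562 on the horizontal axis and under the MOLM14 label on the vertical axis, both as differences of mean log2(FPKM + 1); colours give the classes and open circles the labelled genes. The upper left and lower right quadrants hold the 1001 opposed genes and the other 2 quadrants the 216 shared rises and 174 shared falls.

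Stress response genes that serve amino acid supply made up the most marked group that rose in K562 EVI1 and fell in EVI1 libraries labelled MOLM14. Of 20 members tested, 14 rose and 2 fell in K562, 2 rose and 17 fell under the MOLM14 label, and 13 were opposed. The difference was lower for 16, higher for 2 and not called for 2, against 30.8% lower and 34.1% higher among all genes tested. The median member moved by 0.57 log2 units in K562 and by -1.25 under the MOLM14 label, beside -0.023 and 0.028 over all genes tested. In levels, K562 EVI1 and control labelled MOLM14 had the 2 highest group means for 14 of the 20.

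ASNS, the enzyme that makes asparagine and a textbook ATF4 target (chromosome 7, 97852118 to 97872542 in GRCh38), showed the pattern in every library. It stood at 49.5, 53.4 and 69.3 FPKM in K562 control, at 220, 310 and 180 FPKM in K562 EVI1, at 374, 368 and 338 FPKM in controls labelled MOLM14 and at 62.7, 60.4 and 58.5 FPKM in EVI1 libraries labelled MOLM14. The groups did not overlap under either label, and the EVI1 libraries labelled MOLM14 lay within the range of the K562 controls. The effects were 2.00 and -2.55 log2 units, and their difference was -4.55 (SE 0.22, limma adjusted p = 8.8e-10). PCK2, the mitochondrial enzyme that makes phosphoenolpyruvate, stood at 22.5, 22.9 and 20.9 FPKM in K562 control, at 76.3, 126 and 69.5 FPKM in K562 EVI1, at 66.9, 72.2 and 68.9 FPKM in controls labelled MOLM14 and at 16.1, 16.1 and 13.5 FPKM in the matching EVI1 libraries. Again no groups overlapped within a label, and the difference was -4.05 log2 units (SE 0.22, limma adjusted p = 2.7e-09). CTH, which makes cysteine from cystathionine, rose in K562 by 1.41 and changed by -2.64 log2 units under the MOLM14 label, from 72.8, 75.1 and 70.3 FPKM to 10.9, 12.0 and 9.57 FPKM. TRIB3, a pseudokinase that binds AKT and is induced by ATF4, rose by 1.23 and changed by -2.31 log2 units, with 24.0, 25.8 and 23.2 FPKM in K562 control, 50, 80.6 and 48.9 FPKM in K562 EVI1, 88.8, 99.4 and 87.1 FPKM in controls labelled MOLM14 and 16.5, 18.7 and 17.8 FPKM in their EVI1 counterparts. In K562 EVI1 the second library was the highest for ASNS, PCK2 and TRIB3, and all 3 libraries lay above the controls.

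Other members, chosen after their values were seen, followed the same order. PHGDH, the first enzyme of serine synthesis, had an effect of 0.90 in K562 and of -2.24 under the MOLM14 label. MTHFD2, a mitochondrial folate enzyme, had effects of 0.92 and -1.55, and SLC7A5, a carrier of large neutral amino acids, effects of 1.44 and -1.28 log2 units. The members outside the pattern were EIF2AK1, the haem-regulated kinase of the pathway, which fell under both labels (-0.37 and -0.44), MTHFD1, a folate enzyme, which rose under both (0.20 and 0.33), and EIF2AK2, another kinase of the pathway, and ALDH18A1, an enzyme of proline synthesis, whose differences were higher. MTHFD1 and EIF2AK1 lie on chromosomes 14 and 7, where the K562 effect was shifted as a whole. The K562 call of MTHFD1 was lost without K562 control replicate 2 (0.16) or K562 EVI1 replicate 2 (0.15). Among 17 genes listed with the aminoacyl-tRNA synthetases, which charge tRNAs, the picture was split. Of these, 4 were opposed in the same sense as ASNS, namely SARS, AARS, GARS and CARS. KARS and AIMP2, the latter a partner of synthetases and not itself one, were opposed the other way. Over all genes tested, 12.1% were opposed in the sense of ASNS and 15% the other way. The median difference of the synthetase list was -0.0060. AARS, the alanyl-tRNA synthetase, stood at 119, 126 and 122 FPKM in K562 control and 258, 367 and 239 FPKM in K562 EVI1, then at 216, 241 and 245 FPKM in controls labelled MOLM14 and 83, 90.9 and 85.5 FPKM in EVI1 libraries labelled MOLM14. Its difference was -2.63 log2 units (SE 0.17, limma adjusted p = 9.1e-09).

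HERPUD1, a membrane protein of endoplasmic reticulum quality control, and HSPA5, the main chaperone of that compartment, moved in the same direction as the amino acid genes. HERPUD1 (chromosome 16, 56932048 to 56944863) stood at 10.5, 12.8 and 14.7 FPKM in K562 control, 67.9, 99.6 and 60.0 FPKM in K562 EVI1, 70.1, 68.1 and 71.8 FPKM in controls labelled MOLM14 and 15.4, 18.7 and 13.3 FPKM in EVI1 libraries labelled MOLM14. Its difference was -4.56 log2 units (SE 0.23, limma adjusted p = 1.4e-09). HSPA5 rose from 131, 129 and 141 FPKM to 270, 332 and 238 FPKM in K562, and under the MOLM14 label it fell from 281, 275 and 264 FPKM to 150, 153 and 150 FPKM. HSPH1, a co-chaperone of the HSP70 machinery, went the other way. It stood at 67.5, 60.5 and 61.5 FPKM in K562 control, 43.7, 33.4 and 45.9 FPKM in K562 EVI1, 27.8, 25.1 and 25.3 FPKM in controls labelled MOLM14 and 87.8, 80.7 and 83.2 FPKM in their EVI1 counterparts, a difference of 2.27 log2 units (SE 0.14, limma adjusted p = 6.8e-09). Of the 25 unfolded protein and heat shock genes tested, 5 were opposed in the sense of HERPUD1 and 10 in the sense of HSPH1. Over all genes tested, 12.1% were opposed in the sense of HERPUD1 and 15% in the sense of HSPH1, so the list leaned towards HSPH1.

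The genes with the largest opposed changes included several outside these lists. ULBP1, a ligand that NK cells see through NKG2D (chromosome 6, 149964007 to 149973710), was close to absent in K562 control at 0.280, 0.235 and 0.277 FPKM and stood at 8.08, 7.88 and 6.78 FPKM in K562 EVI1. It stood at 6.47, 5.86 and 5.52 FPKM in controls labelled MOLM14 and at 0.343, 0.256 and 0.333 FPKM in the EVI1 libraries with that label. The difference was -5.17 log2 units (SE 0.14, limma adjusted p = 3.8e-12), the second largest of the negative ones after ADGRD1, an adhesion receptor of the G protein-coupled family (-5.18, SE 0.23). ADGRD1 stood at 1.29, 0.973 and 1.82 FPKM in K562 control, 16.6, 16.1 and 14.3 FPKM in K562 EVI1, 8.91, 9.52 and 8.35 FPKM in controls labelled MOLM14 and 0.625, 1.64 and 0.722 FPKM in EVI1 libraries labelled MOLM14. For both genes the 2 high groups and the 2 low groups were the same as for ASNS. NFATC4, a calcium-regulated transcription factor, had effects of 2.16 and -2.03 log2 units, and AREG, a ligand of the EGF receptor, of 1.59 and -1.99. MLXIPL, a glucose-sensing factor of the MAX network, had effects of 1.52 and -1.73, KLHL24, an adaptor of a ubiquitin ligase, of 1.56 and -1.56, and BCHE, a choline ester hydrolase, of 1.57 and -1.47. These class leaders were chosen among genes whose EVI1 and control libraries did not overlap under either label, a condition met by 42.8% of genes tested.

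Promoter windows of 250 bases before and 50 after the start were taken from RefSeq (GRCh38.p14) to show a motif next to the genes that moved together. The core letters TGATGCA, bound by ATF4 with C/EBP partners, were searched on both strands and stood in 1.48% of the windows of 3033 genes tested that had one, in 3 of 17 stress response members (17.6%) and in 13 of 344 genes that rose in K562 and fell under the MOLM14 label (3.78%). The share was similar among shared rises, at 6 of 184 (3.26%), and the windows of ASNS, PCK2, CTH and TRIB3 do not hold these letters. The windows of the 2 opposed genes below are shown because they hold these letters; capitals mark the match, read on the other strand as TGCATCA, and in HERPUD1 also the E-box CACGTG, which does not overlap it.
HERPUD1, chr16:56931892-56932191, plus strand: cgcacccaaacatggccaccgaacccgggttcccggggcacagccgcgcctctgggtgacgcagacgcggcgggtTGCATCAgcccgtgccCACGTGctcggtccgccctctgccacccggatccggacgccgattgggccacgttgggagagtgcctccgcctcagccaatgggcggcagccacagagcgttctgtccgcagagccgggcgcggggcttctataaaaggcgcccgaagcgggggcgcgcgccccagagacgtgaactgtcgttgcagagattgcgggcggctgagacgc
ULBP1, chr6:149963693-149963992, plus strand: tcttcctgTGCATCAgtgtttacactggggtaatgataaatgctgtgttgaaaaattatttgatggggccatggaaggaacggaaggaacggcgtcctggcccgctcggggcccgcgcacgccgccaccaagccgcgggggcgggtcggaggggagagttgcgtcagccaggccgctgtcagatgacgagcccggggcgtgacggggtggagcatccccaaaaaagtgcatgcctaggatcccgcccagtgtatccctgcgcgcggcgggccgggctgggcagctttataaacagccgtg
These shares describe letters in a window and are no measure of binding.

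Ribosome biogenesis moved as a block in the opposite sense. Of 37 nucleolar genes tested, 35 fell and none rose in K562, 33 rose and none fell under the MOLM14 label, and 31 were opposed. The difference was higher for all 37, against 34.1% of all genes tested. The median member moved by -0.51 log2 units in K562 and 0.71 under the MOLM14 label, with a median difference of 1.18 beside 0.038 over all genes tested. The 2 members that did not pass in K562 were DDX49 (-0.19) and FTSJ3 (-0.16), and the 4 that did not pass under the MOLM14 label were LAS1L (0.12), RIOK2 (0.18), KRR1 (0.17) and DDX54 (0.01).

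CD3EAP, a subunit of RNA polymerase I (chromosome 19, 45406209 to 45410766), showed the widest swing of the list. It stood at 24.6, 22.4 and 19 FPKM in K562 control, 8.95, 6.80 and 9.67 FPKM in K562 EVI1, 4.19, 6.01 and 4.75 FPKM in controls labelled MOLM14 and 24.4, 31 and 25.2 FPKM in EVI1 libraries labelled MOLM14. K562 controls and EVI1 libraries labelled MOLM14 were the high groups and met at their edges, while the other 2 groups were low. The effects were -1.28 and 2.22 log2 units, and the difference 3.51 (SE 0.20, limma adjusted p = 3.4e-09). UTP20, a scaffold of the small subunit processome, stood at 9.46, 7.81 and 7.86 FPKM in K562 control, 3.32, 2.45 and 3.20 FPKM in K562 EVI1, 5.11, 4.82 and 4.94 FPKM in controls labelled MOLM14 and 14.4, 13.8 and 13.2 FPKM in their EVI1 counterparts, a difference of 2.55 (SE 0.14, limma adjusted p = 2.9e-09). PUS7, a pseudouridine synthase, stood at 32.7, 30.3 and 34.4 FPKM in K562 control, 13.9, 11.4 and 12.9 FPKM in K562 EVI1, 18.2, 15.8 and 16.9 FPKM in controls labelled MOLM14 and 43.7, 42.7 and 47.0 FPKM in EVI1 libraries labelled MOLM14, a difference of 2.63 (SE 0.12, limma adjusted p = 6.0e-10). NOP16, a nucleolar protein, had effects of -0.74 and 1.53. Abundant members chosen after their values were seen moved less: NCL, nucleolin, had effects of -0.78 and 0.65 log2 units, and FBL, the methyltransferase fibrillarin, of -0.23 and 0.25, with control and EVI1 libraries of FBL overlapping under the MOLM14 label.

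The E-box letters CACGTG, bound by MYC with MAX and by related factors, read the same on both strands. They stood in 10.6% of the promoter windows of genes tested, in 13 of 30 ribosome biogenesis members with a window (43.3%) and in 72 of 460 genes that fell in K562 and rose under the MOLM14 label (15.7%). They also stood in 5 of 17 stress response members (29.4%), which moved the opposite way, and in 37 of 344 genes that rose in K562 and fell under the MOLM14 label (10.8%). The windows of PUS7 and UTP20 are shown because they hold the letters near the start of the gene, which capitals mark.
PUS7, chr7:105522222-105522521, minus strand: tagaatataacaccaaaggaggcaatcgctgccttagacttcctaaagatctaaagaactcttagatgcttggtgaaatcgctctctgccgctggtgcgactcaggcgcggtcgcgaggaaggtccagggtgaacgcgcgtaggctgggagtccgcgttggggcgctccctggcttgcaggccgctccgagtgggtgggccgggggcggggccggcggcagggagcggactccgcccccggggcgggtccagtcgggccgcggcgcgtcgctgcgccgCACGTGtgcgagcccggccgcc
UTP20, chr12:101279855-101280154, plus strand: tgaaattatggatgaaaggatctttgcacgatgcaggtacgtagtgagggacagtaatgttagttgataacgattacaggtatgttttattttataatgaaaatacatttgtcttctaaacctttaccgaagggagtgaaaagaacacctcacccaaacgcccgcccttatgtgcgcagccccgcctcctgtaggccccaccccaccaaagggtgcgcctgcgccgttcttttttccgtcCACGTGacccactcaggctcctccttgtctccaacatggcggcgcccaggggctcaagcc
By contrast, RNA levels of the genes for the proteins of the ribosome itself hardly moved. Of 21 ribosomal protein genes tested, the difference was called for 5 (23.8%, against 64.9% of all genes). Their median effects were -0.035 and -0.0012 log2 units.

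Genes of DNA replication and the entry into S phase moved with the nucleolar genes, by less. Of 40 tested, 23 fell and none rose in K562, 23 rose and none fell under the MOLM14 label, and 16 were opposed. Over all genes, 28.4% rose and 30.8% fell in K562, and 31.5% rose and 27.1% fell under the MOLM14 label. The difference was called for 28 (70%, near the 64.9% of all genes), all of them higher, and the median difference was 0.51 log2 units. CCNE1, the cyclin that starts S phase with CDK2, stood at 30.4, 26.7 and 31.7 FPKM in K562 control, 21.7, 22.7 and 21.5 FPKM in K562 EVI1, 18.1, 19 and 17.7 FPKM in controls labelled MOLM14 and 33.2, 36.2 and 32.4 FPKM in EVI1 libraries labelled MOLM14. UNG, the uracil glycosylase that repairs newly made DNA, fell from 40.9, 36.0 and 37.0 FPKM to 22.3, 22.9 and 23.3 FPKM in K562 and rose from 21.5, 21.1 and 19.9 FPKM to 35.2, 35.2 and 33.8 FPKM under the MOLM14 label. The differences were 1.27 (SE 0.11) and 1.42 (SE 0.09) log2 units, with limma adjusted p of 1.5e-07 and 1.4e-08. MCM4, a subunit of the replicative helicase, had effects of -0.27 and 0.74. Among 32 mitosis genes the counts were less one-sided, with 13 differences higher, 4 lower and 15 not called, beside 34.1% higher and 30.8% lower over all genes.

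**Figure D2:**
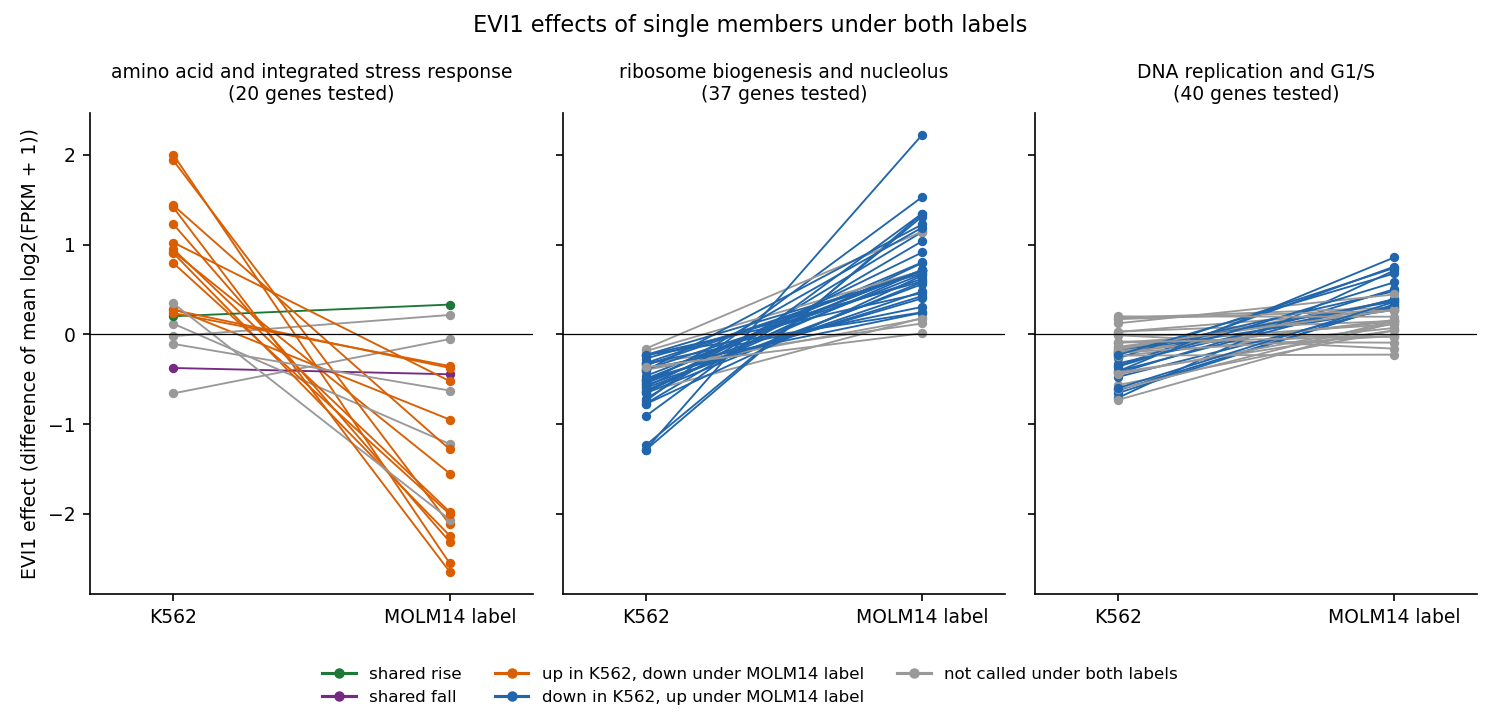
EVI1 effects of single genes of 3 lists in K562 and under the MOLM14 label, as differences of mean log2(FPKM + 1), with 1 line per gene tested and colours for the class. Most of the 20 stress response genes run from above to below 0, and all 37 ribosome biogenesis genes run upwards from below 0. Of the 40 replication genes, 23 fell in K562 and 23 rose under the MOLM14 label, over a narrower range, and 12 differences were not called.

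The other leading genes of the class that fell in K562 and rose under the MOLM14 label did not share a list. NEFH, a neurofilament subunit, had the largest difference of this class: it stood at 15.8, 12.2 and 12.3 FPKM in K562 control, 3.89, 3.36 and 4.96 FPKM in K562 EVI1, 3.23, 3.83 and 3.15 FPKM in controls labelled MOLM14 and 18.6, 18.6 and 16.9 FPKM in their EVI1 counterparts. Its difference was 3.63 log2 units (SE 0.17, limma adjusted p = 8.8e-10). SELPLG, the P-selectin ligand of white blood cells, had effects of -1.43 and 1.08, KISS1R, the kisspeptin receptor, of -1.04 and 1.68, and KCNH2, a potassium channel, of -0.92 and 0.96. RRP15, a ribosomal RNA processing factor outside the list, had effects of -1.38 and 1.12, WDR77, a partner of the arginine methyltransferase PRMT5, of -1.0 and 1.24, and KLHL13, a ubiquitin ligase adaptor, of -1.35 and 1.04.

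**Figure D3:**
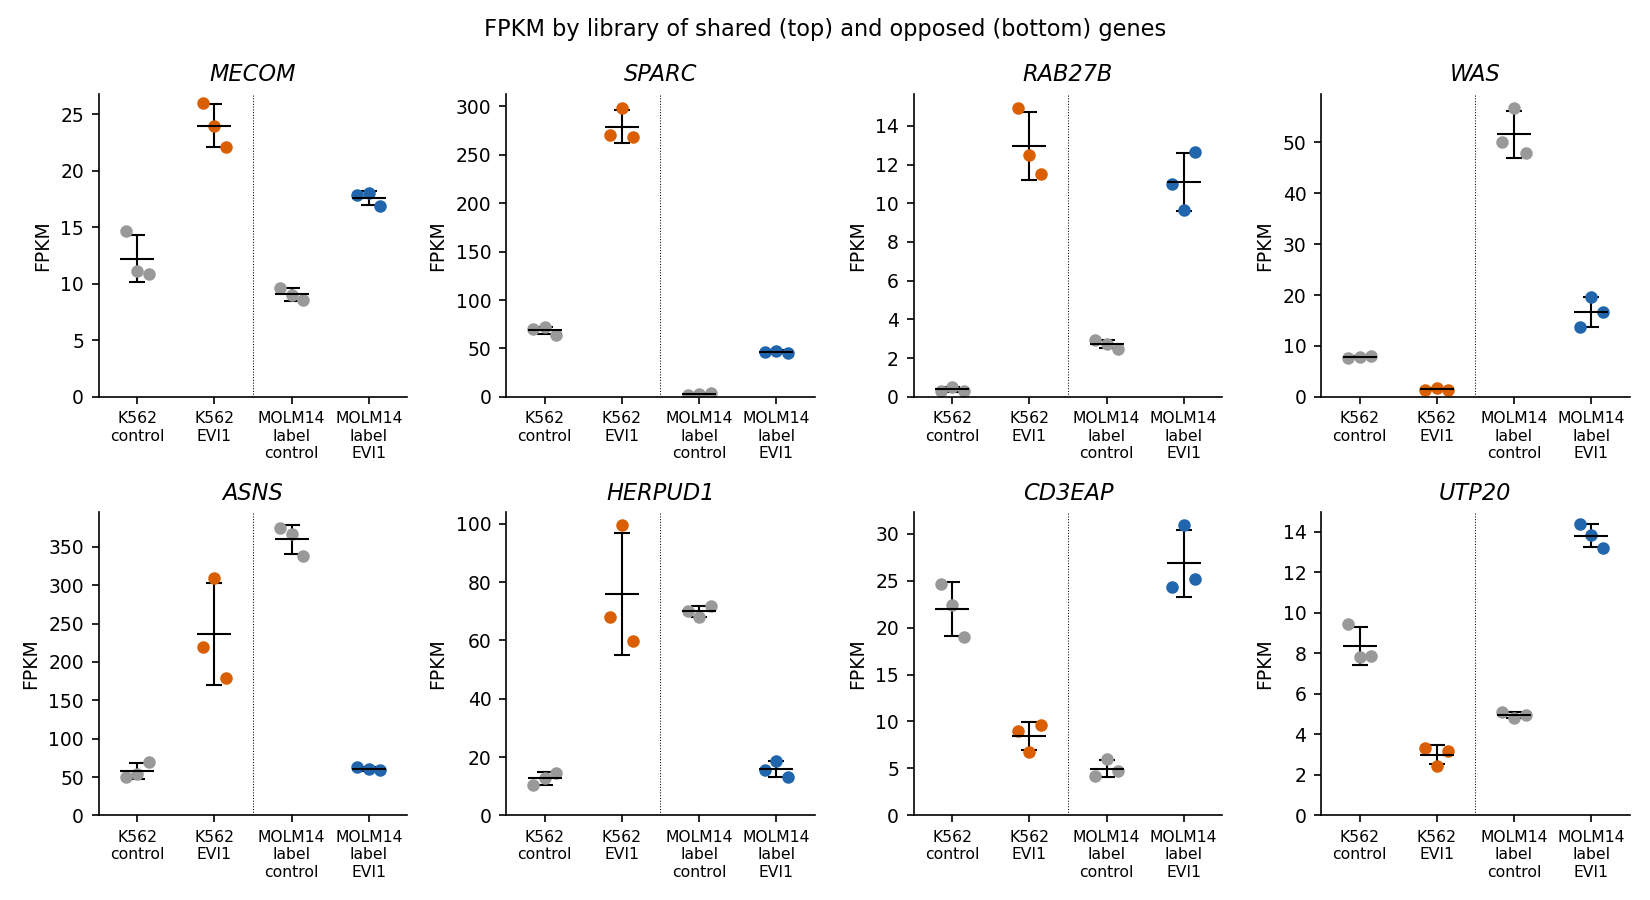
FPKM of 4 shared genes (top) and 4 opposed genes (bottom) in each of the 12 libraries, with points for libraries and bars for the mean and SD of each group of 3. MECOM, SPARC and RAB27B are higher and WAS lower in EVI1 libraries under both labels, whereas ASNS and HERPUD1 are high in K562 EVI1 and in controls labelled MOLM14, and CD3EAP and UTP20 are high in the other 2 groups.

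For opposed genes the class definition fixes the order of EVI1 and control within each label, so only the order across labels was free. Of the 448 that rose in K562 and fell under the MOLM14 label, K562 EVI1 and control labelled MOLM14 were the 2 highest means for 333 (74.3%). Of the 553 opposed the other way, K562 control and EVI1 labelled MOLM14 were the 2 highest for 386 (69.8%). Over all genes tested, the mean of EVI1 libraries labelled MOLM14 was nearer to the K562 control mean than the mean of controls labelled MOLM14 was for 2416 genes (65.4%). These orders compare levels across columns that appear to have been normalized separately, and carry no test. MECOM followed the group labels under both line labels, with 17.8, 18 and 16.9 FPKM in EVI1 libraries labelled MOLM14 above 9.66, 9.02 and 8.55 FPKM in their controls.

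Shared rises with the largest smaller effect were MT4, SPARC and MS4A6A. SPARC, a matrix protein stored in platelet granules, stood at 69.6, 71.8 and 64.4 FPKM in K562 control, 270, 298 and 268 FPKM in K562 EVI1, 1.64, 2.90 and 3.57 FPKM in controls labelled MOLM14 and 46.8, 47.8 and 45.3 FPKM in EVI1 libraries labelled MOLM14. It rose by 2.01 and 3.72 log2 units, and the rise was larger under the MOLM14 label (difference 1.71, SE 0.20, limma adjusted p = 3.8e-06). RAB27B, a small GTPase of granule secretion in platelets, stood at 0.326, 0.523 and 0.303 FPKM in K562 control, 14.9, 12.5 and 11.5 FPKM in K562 EVI1, 2.92, 2.75 and 2.49 FPKM in controls labelled MOLM14 and 11.0, 9.63 and 12.7 FPKM in their EVI1 counterparts. Its rises were 3.33 and 1.69 log2 units, the larger in K562 (difference -1.64, SE 0.16, limma adjusted p = 8.8e-07). PTGS1, the constitutive cyclooxygenase of platelets, rose from 7.74, 7.87 and 8.38 FPKM to 41.6, 44.9 and 41.5 FPKM in K562 and from 6.81, 6.35 and 5.86 FPKM to 16, 16.4 and 16.3 FPKM under the MOLM14 label. MT4, a metallothionein, was listed at 0 in 5 of the 6 control libraries and at 0.236 FPKM in the other one, and stood at 215, 247 and 280 FPKM in K562 EVI1 and at 18.4, 12.4 and 23.6 FPKM in EVI1 libraries labelled MOLM14. Metallothioneins form a family of related genes, and whether reads of other members were counted for MT4 was not tested.

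Among the other leading shared rises, some were of nearly equal size and others were not. CYP26A1, which breaks down retinoic acid, stood at 1.38, 1.86 and 2.03 FPKM in K562 control, 8.77, 7.02 and 8.34 FPKM in K562 EVI1, 1.61, 0.906 and 1.61 FPKM in controls labelled MOLM14 and 6.81, 6.88 and 5.88 FPKM in EVI1 libraries labelled MOLM14. The groups did not overlap, and the rises of 1.72 and 1.68 log2 units were alike (difference -0.04, SE 0.19). MS4A6A, a membrane protein of myeloid cells, rose by 1.86 and 1.99, NEBL, the actin-binding protein nebulette, by 1.91 and 1.82, and DHRS2, a short-chain dehydrogenase, by 1.44 and 2.10 log2 units. MS4A4A, a relative of MS4A6A, rose by 3.37 and 1.65, and ITIH5, a hyaluronan-binding protein, by 1.39 and 1.27. Of the 216 shared rises, the difference was called for 80, of which 55 were larger in K562 and 25 under the MOLM14 label. The highest group mean was K562 EVI1 for 179 of the 216.

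Shared falls with the largest smaller effect were WAS, LAMB1 and TYROBP. WAS, the actin regulator lost in Wiskott-Aldrich syndrome, stood at 7.71, 7.81 and 8.02 FPKM in K562 control, 1.42, 1.80 and 1.37 FPKM in K562 EVI1, 50.1, 56.8 and 48.0 FPKM in controls labelled MOLM14 and 13.7, 19.6 and 16.7 FPKM in EVI1 libraries labelled MOLM14. The effects were -1.81 and -1.59 log2 units, with a difference of 0.22 (SE 0.16, limma adjusted p = 0.23); the difference passed at 0.35 without MOLM14 EVI1 replicate 1 and took the other sign with a pseudocount of 5. TYROBP, a signalling adaptor of NK and myeloid cells, stood at 3.83, 2.96 and 3.89 FPKM in K562 control, 1.17, 1.07 and 0.564 FPKM in K562 EVI1, 25.3, 29 and 20.2 FPKM in controls labelled MOLM14 and 8.11, 4.88 and 5.27 FPKM in their EVI1 counterparts. LCP2, the T-cell and platelet adaptor SLP-76, fell from 10.3, 10.0 and 9.21 FPKM to 4.38, 4.46 and 3.97 FPKM in K562 and from 25.3, 23.8 and 27.0 FPKM to 9.15, 10.0 and 8.58 FPKM under the MOLM14 label. For all of these the controls labelled MOLM14 were the highest group, which held for 155 of the 174 shared falls. LEPR, the leptin receptor, had nearly equal effects of -1.05 and -1.04, LAMB1, a laminin chain, of -1.40 and -1.25, and IGF1, the growth factor, of -1.01 and -1.71. TP63, a relative of p53, had effects of -1.73 and -1.01, TMEM156 of -1.05 and -1.44, FCGRT, the neonatal Fc receptor, of -0.92 and -1.83, and PRSS8, a membrane protease, of -0.89 and -1.92 log2 units.

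Some of the largest differences came from genes that moved mainly under 1 label. TFPI, the inhibitor of the tissue factor pathway of clotting, stood at 38.6, 34.8 and 36.5 FPKM in K562 control and 703, 634 and 660 FPKM in K562 EVI1, but at 83.3, 77.9 and 61.1 FPKM in controls labelled MOLM14 and 46.6, 46.2 and 41.9 FPKM in EVI1 libraries labelled MOLM14. The effects were 4.15 and -0.70, and the difference -4.85 (SE 0.14, limma adjusted p = 4.4e-12). GCA, the calcium-binding protein grancalcin, stood at 0.207, 0.0582 and 0.0925 FPKM in K562 control and 15.3, 17.8 and 16.1 FPKM in K562 EVI1, with effects of 3.96 and -1.04. In the other direction SCIN, the actin-severing protein scinderin, did not change in K562 beyond its spread (27.5, 25.0 and 27.8 FPKM against 30.1, 28.7 and 27.4 FPKM, limma adjusted p = 0.33). Under the MOLM14 label it rose from 0.278, 0.402 and 0.233 FPKM to 17.5, 19.8 and 19.3 FPKM, a level near that of K562. SCIN lies on chromosome 7, and with values centred within chromosomes its K562 effect was 0.50 and passed. MAGEC2, a cancer-testis antigen, was a shared rise of unequal size. It went from 45.9, 44.6 and 46 FPKM to 72.4, 72.3 and 68.5 FPKM in K562 (0.63) and from 3.20, 3.64 and 3.53 FPKM to 35.7, 36.1 and 32.5 FPKM under the MOLM14 label (3.00). The differences of SCIN and MAGEC2 were 3.83 (SE 0.12) and 2.37 (SE 0.10) log2 units.

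The drugs of the series title act on BCL2 and AKT, and both pathways were followed as lists. BCL2 and AKT1 themselves were not among the genes tested. Of 18 BCL2 family and apoptosis genes tested, 6 rose and 7 fell in K562, and 6 rose and 6 fell under the MOLM14 label. Over all genes, 28.4% rose and 30.8% fell in K562, and 31.5% rose and 27.1% fell under the MOLM14 label. The difference was called for 16 (88.9%, beside 64.9% of all genes), 9 higher and 7 lower, beside 34.1% and 30.8% of all genes. BBC3, which encodes the BH3-only protein PUMA, stood out among them: it stood at 6.64, 7.62 and 6.39 FPKM in K562 control, 15.3, 21.6 and 16.3 FPKM in K562 EVI1, 17.7, 18.5 and 21.1 FPKM in controls labelled MOLM14 and 4.60, 5.28 and 4.49 FPKM in their EVI1 counterparts. Its difference was -3.03 log2 units (SE 0.17, limma adjusted p = 2.6e-09). BMF, another BH3-only gene, rose in K562 alone (1.18 against -0.09 under the MOLM14 label), as did CFLAR, a caspase inhibitor (0.82 against -0.0085), with differences of -1.27 and -0.83. BNIP3L, a mitophagy receptor, fell under the MOLM14 label and did not pass in K562 (-1.22 and 0.037).

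The pore-forming effectors of apoptosis, BAX and BAK1, rose under the MOLM14 label, where BBC3 was lower in EVI1 libraries, and passed in K562 in neither direction. BAX did not pass in K562 (-0.11) and rose under the MOLM14 label by 0.55, from 50.2, 60.5 and 58.9 FPKM to 75.8, 93.0 and 80.5 FPKM, with a difference of 0.66 (SE 0.17, limma adjusted p = 0.0037); without K562 control replicate 3 its K562 effect was -0.28 and passed. BAK1 rose by 0.48 under the MOLM14 label and had an effect of 0.13 in K562 that did not pass. CASP2, an initiator caspase on chromosome 7, had effects of -0.54 and 0.70, and its K562 call was lost at -0.13 with values centred within chromosomes. The 2 shared changes were BIRC2, an inhibitor of apoptosis, which fell (-0.25 and -0.38), and HTRA2, a mitochondrial protease, which rose (0.28 and 0.25). The K562 call of BIRC2 was lost without K562 control replicate 3 (-0.16) or without K562 EVI1 replicate 2 or 3 (-0.22 and -0.21). The same list's BIK, BCL2L14 and BIRC3 lay in usable rows without passing the filter, with BIRC3 at 2.69, 2.85 and 2.14 FPKM in controls labelled MOLM14 and at most 0.427 FPKM in every other library.

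In the PI3K, AKT and mTOR list 35 genes were tested, of which 15 rose and 10 fell in K562, and 5 rose and 11 fell under the MOLM14 label. Over all genes, 28.4% rose and 30.8% fell in K562, and 31.5% rose and 27.1% fell under the MOLM14 label, so the falls were near the background. The difference was called for 20 (57.1%, beside 64.9% of all genes), 5 higher and 15 lower, beside 34.1% and 30.8% of all genes. GAB2, an adaptor that recruits PI3K, stood at 13.8, 13.6 and 13 FPKM in K562 control, 18.5, 22.6 and 19.1 FPKM in K562 EVI1, 34.0, 34.0 and 38.7 FPKM in controls labelled MOLM14 and 10.9, 11.2 and 9.53 FPKM in EVI1 libraries labelled MOLM14, a difference of -2.20 (SE 0.13, limma adjusted p = 3.8e-09). FOXO3, a transcription factor that AKT keeps out of the nucleus, had effects of 0.71 and -0.67, and PHLPP1, a phosphatase of AKT, of 0.67 and -0.55. INPP4B and PIK3IP1, which both damp the pathway, had effects of 0.90 and -0.70 and of 0.61 and -0.75, with K562 levels under 2 FPKM. AKT2 passed under neither label (-0.17 and 0.09), though its K562 effect passed without K562 control replicate 3 (-0.23) or K562 EVI1 replicate 2 (-0.25). The shared changes were rises of SGK1 and RPS6KA1, kinases related to AKT, and falls of PIK3CG, a PI3K catalytic subunit, and SGK3. Under the MOLM14 label the call of SGK1 was lost without control replicate 2 (0.36), EVI1 replicate 1 (0.40) or EVI1 replicate 3 (0.39). In K562 the call of SGK3 was lost in several of these repeats, among them without K562 control replicate 3 (-0.23), and PIK3CG on chromosome 7 had an effect of 0.070 after centring.

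**Figure D4:**
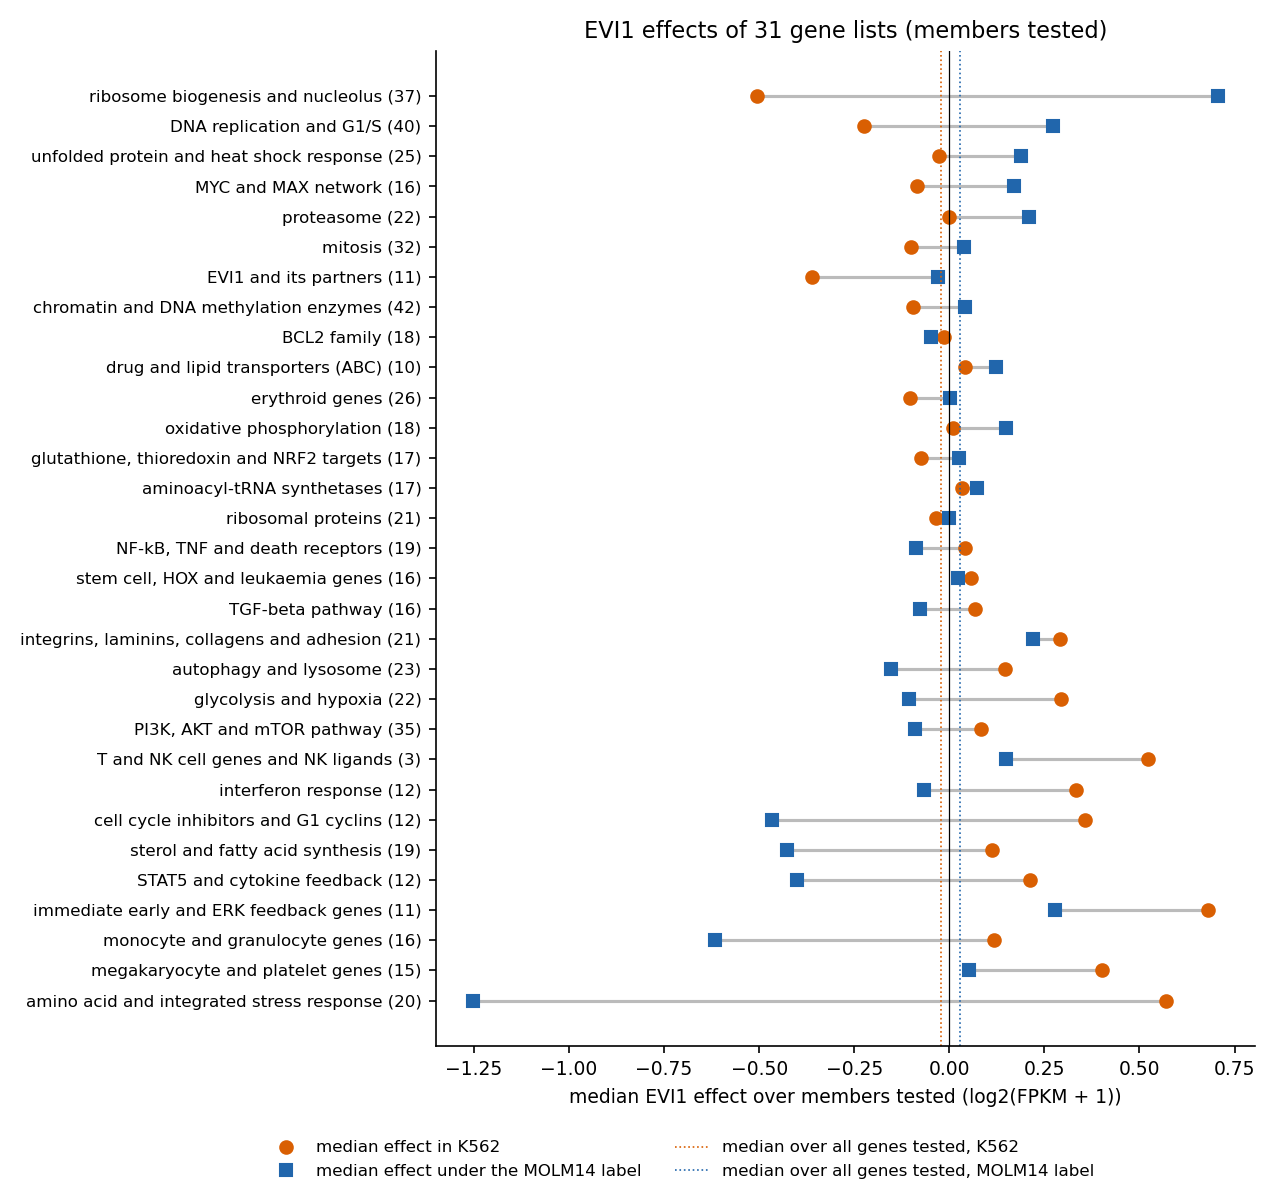
Median EVI1 effect over the members tested of each of 31 gene lists, in K562 (circles) and under the MOLM14 label (squares), in log2(FPKM + 1), ordered by median difference, with the number of members in brackets and dotted lines at the medians over all genes tested. Ribosome biogenesis lies at one end, from -0.51 to 0.71, and the stress response list at the other, from 0.57 to -1.25.

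Lineage genes were mixed, and their counts are set beside the shares of all genes tested, 28.4% up and 30.8% down in K562, 31.5% and 27.1% under the MOLM14 label, and differences 34.1% higher and 30.8% lower. Of 15 megakaryocyte and platelet genes tested, 11 rose and 1 fell in K562, while 5 rose and 5 fell under the MOLM14 label, which is near the background, and the difference was lower for 11 and higher for 3. Of 16 monocyte and granulocyte genes, 7 rose and 4 fell in K562 and 2 rose and 11 fell under the MOLM14 label, with 11 differences lower and 1 higher. CD33, a surface antigen of myeloid cells, stood at 25.1, 24.6 and 24.3 FPKM in K562 control, 51.2, 58.5 and 50.2 FPKM in K562 EVI1, 36.1, 33.2 and 35.1 FPKM in controls labelled MOLM14 and 9.82, 10.7 and 10.7 FPKM in EVI1 libraries labelled MOLM14. Its difference was -2.73 (SE 0.10, limma adjusted p = 9.3e-11). LYZ, the lysozyme gene, and SPI1, the myeloid factor PU.1, fell under both labels, LYZ by effects of -0.76 and -1.17 and SPI1 by -0.60 and -0.55. LYZ, CD33 and SPI1 also stand in the MOLM14 marker list. The sum of that list was lower in EVI1 than in control libraries under that label, and higher in K562 EVI1 than in K562 control. Not every member moved with the sum. PTPRC stood at 59.9, 43.1 and 34.1 FPKM in controls labelled MOLM14 and at 61.6, 78.1 and 69.1 FPKM in their EVI1 counterparts. In K562, too, each EVI1 library lay above each control for PTPRC, whereas LYZ, SPI1 and TYROBP were lower in K562 EVI1. Whether a change in cell make-up took part was not tested. In bulk RNA, fewer cells of a type and less RNA per cell cannot be told apart. Of 26 erythroid genes, 8 differences were higher, 8 lower and 10 not called, which is close to the shares over all genes. KLF1, an erythroid factor, and TFRC, the transferrin receptor, fell in K562 (-0.40 and -0.42) and rose under the MOLM14 label (0.77 and 0.72). XK of the same list went the other way, with effects of 0.78 and -0.83 and a difference of -1.61 log2 units. Of the 26 genes, 4 were opposed in the sense of KLF1 and 2 in the sense of XK.

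Adhesion and matrix genes held a larger share of joint changes than the lists above. Of 21 integrin, laminin, collagen and adhesion genes tested, 7 were shared rises (33.3%, beside 5.84% of all genes) and 2 shared falls, though the difference was called for 15. COL1A1, the collagen chain, stood at 0.864, 2.39 and 1.95 FPKM in K562 control and 21.8, 23.4 and 17.5 FPKM in K562 EVI1, against 1.14, 1.06 and 2.62 FPKM in controls labelled MOLM14 and 2.00, 3.71 and 2.98 FPKM in their EVI1 counterparts, where the groups overlapped. Its effects were 3.03 and 0.60, with a limma adjusted p of 0.043 for the second, which missed the threshold in 7 of the 12 repeats that left out 1 library each (0.46 to 0.60 in these). FN1, fibronectin, had effects of 2.24 and 0.53, the second lost at 0.33 without MOLM14 control replicate 1, and CD44, the hyaluronan receptor, of 2.13 and 0.99. The same order, with a large rise in K562 and a small one under the MOLM14 label, held for the immediate early factor EGR1, at 34.6, 43.8 and 39.3 FPKM in K562 control and 189, 165 and 173 FPKM in K562 EVI1, against 31.7, 33.7 and 34.6 FPKM and 38.0, 42.4 and 41.5 FPKM under the MOLM14 label. Its effects were 2.14 and 0.28 and their difference -1.86 (SE 0.12, limma adjusted p = 1.1e-08). SMAD7, the inhibitor of TGF-beta signalling, rose by 2.23 in K562; its rise under the MOLM14 label (0.38) was lost without any 1 of the controls or without EVI1 replicate 3 (0.20).

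Cell cycle inhibitors with G1 cyclins, cytokine feedback genes, sterol synthesis and glycolysis genes had medians above 0 in K562 (0.36, 0.21, 0.11 and 0.29) and below 0 under the MOLM14 label (-0.47, -0.40, -0.43 and -0.11). BCL6, a repressor controlled by STAT5, stood at 3.16, 3.87 and 3.58 FPKM in K562 control, 6.49, 7.11 and 5.99 FPKM in K562 EVI1, 17.9, 18.8 and 21.9 FPKM in controls labelled MOLM14 and 3.78, 4.30 and 3.45 FPKM in EVI1 libraries labelled MOLM14, a difference of -2.81 (SE 0.15, limma adjusted p = 1.8e-09). VEGFA, the vascular growth factor, had effects of 0.95 and -1.98, NDRG1, a stress- and hypoxia-induced gene, of 3.04 and -0.50, and FDFT1, squalene synthase, of 0.50 and -0.97. Of 19 sterol and fatty acid genes tested, 3 rose and 13 fell under the MOLM14 label (31.5% and 27.1% of all genes), while in K562 6 rose and 6 fell (28.4% and 30.8% of all genes). Of 22 glycolysis and hypoxia genes, 11 rose and 1 fell in K562, and 4 rose and 11 fell under the MOLM14 label. CCND1 and CCND3, cyclins of G1, were shared rises: CCND1 stood at 5.23, 5.85 and 4.09 FPKM in K562 control, 8.60, 12.0 and 12.1 FPKM in K562 EVI1, 3.53, 4.11 and 2.68 FPKM in controls labelled MOLM14 and 7.02, 7.74 and 6.80 FPKM in the matching EVI1 libraries. DNMT3A, a DNA methyltransferase reported to bind EVI1, was opposed, with effects of 0.77 and -0.55.

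The K562 effect also differed by chromosome. On chromosome 7 the median K562 effect over 205 genes was -0.41 log2 units, with 141 genes falling and 16 rising, and on chromosome 20 it was -0.34 over 153 genes, with 97 falling and 19 rising. On chromosome 14 it was 0.46 over 172 genes, with 127 rising and 4 falling, and on chromosome 18 it was 0.36 over 42 genes. On the other chromosomes medians lay between -0.10 and 0.08, and under the MOLM14 label all medians lay between -0.16 and 0.19. Each K562 EVI1 library showed the shift: against the control mean, chromosome 7 stood at -0.42, -0.36 and -0.46, and chromosome 14 at 0.47, 0.50 and 0.42. In neighbouring windows of about 15 genes, all 13 on chromosome 7 were below 0 and all 11 on chromosome 14 above 0. On chromosome 20 the first 2 windows, from TRIB3 to XRN2, were near 0 and the other 8 lay between -0.64 and -0.31. The last 3 windows of chromosome 6, from HBS1L to PDCD2, had medians of -0.44, -0.34 and -0.48. On chromosome 11 the window from HIPK3 to MADD had a K562 median of 0.66, with 16 of 17 genes above 0, and a median difference of -0.85. Off chromosomes 7, 14, 18 and 20, 11 of 198 windows had a K562 median beyond 0.3 in either direction. DNA copy number was not measured in these libraries, and its part in these shifts was not tested.

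Chromosomes 7, 14, 18 and 20 were then set apart, which leaves the regional shifts on other chromosomes in place. Of their 572 genes the difference was called for 406, and on chromosome 7 it was called for 76.1%. Among the 3125 genes elsewhere the difference was called for 1994 (63.8%), with 169 shared rises, 134 shared falls, 379 genes up in K562 and down under the MOLM14 label and 442 the other way, so opposed changes outnumbered shared ones there too. With log2 values centred within each chromosome, shared rises and falls numbered 192 and 171 and opposed genes 506 and 505, and 14 genes passed between a shared and an opposed class. ASNS lies on chromosome 7 and PCK2 on chromosome 14, and after centring their K562 effects were 2.40 and 1.47. MTHFD1, AHSA1, a co-chaperone, and PSME2, a proteasome activator, are shared rises on chromosome 14, and their K562 effects of 0.20, 0.31 and 0.30 became -0.26, -0.16 and -0.17.

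**Figure D5:**
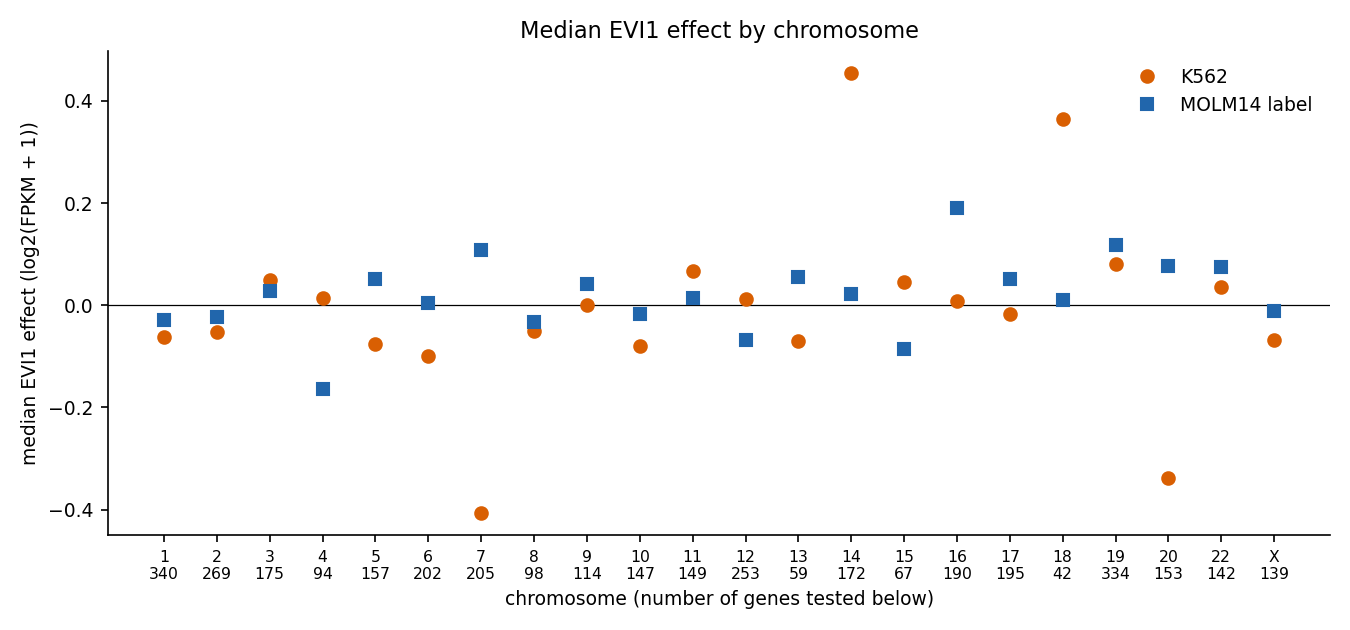
Median EVI1 effect over the genes tested on each chromosome, in log2(FPKM + 1), for K562 (circles) and the MOLM14 label (squares), with the number of genes under each chromosome. K562 medians leave the narrow band of the others on chromosomes 7 and 20 (below 0) and 14 and 18 (above 0), whereas the medians under the MOLM14 label stay between -0.16 and 0.19.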

How the data were processed

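Per the labels, total RNA of human lines went into 12 TruSeq libraries, 3 in each of 4 groups. The authors deposited 1 table of FPKM per gene; per the submitters' processing notes STAR, Cufflinks and Cuffnorm were used with builds named hg38 and GRCh38; versions and strand setting are not given in the sources used here. Whether overlapping genes on opposite strands were told apart is therefore not known. Depth per sample cannot be read from these values, and 3 libraries per group limit the precision.

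Rows before the first identifier ending in _PAR_Y were used: in 275 windows of 20 such rows the control means of both labels correlated at 0.883 or more, against 0.0414 in the next 500 rows. In these rows 5 symbols turned into dates were restored from their identifiers, and 5016 identifiers had their exact version in GENCODE 29, for which alone gene coordinates are given. No columns of other samples were present. A gene was kept if 3 or more of the 6 libraries under each label reached 1 FPKM; 141 passed in K562 alone, 71 under the MOLM14 label alone and 1601 under neither.

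Effects were fitted to log2(FPKM + 1), with a pseudocount of 1, by limma 3.58.1 (R 4.3.3) with a mean-variance trend in 1 model of 12 libraries, two-sided, and adjusted by the Benjamini-Hochberg method over 3697 genes. Tables were handled with Python 3.11.15 and pandas 2.3.3. The pipeline was tested on simulated data. A shared change has both effects called with 1 sign; an opposed change has both called with opposite signs and the difference called. The 31 gene lists hold 1833 genes, of which 727 were in usable rows and 589 were tested; the lists and the comparison were chosen with earlier results of these data known. Named genes are MECOM, members of the BCL2 and AKT lists, the 10 genes of each class with the largest smaller effect and no overlap under either label, the 10 largest differences each way, and in each list up to 4 differences and 3 shared changes; others are marked. Replicate numbers were not treated as pairs, because in K562 libraries with the same number deviated together for number 2 alone (r of -0.058, 0.35 and -0.11). Under the MOLM14 label r was 0.14, 0.0996 and 0.065, and a fit with the replicate number as a block is given below. Alternatives were other pseudocounts, filters, scalings, weights, no trend, separate fits, a replicate block and leaving out each library; centring within chromosomes and leaving out chromosomes 7, 14, 18 and 20 were chosen after seeing the data.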

Additional observations from a re-analysis of the deposited data

Results flagged for a closer look

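The EVI1 effect differed between the labels by the limma test of the difference itself for 2400 of 3697 genes, and the 10 leading genes of each opposed class, those with the largest smaller effect, are given here with that difference, the effect under the MOLM14 label minus the effect in K562, in log2(FPKM + 1). Those that rose in K562 and fell under the MOLM14 label were ADGRD1 (-5.18), ULBP1 (-5.17), HERPUD1 (-4.56), ASNS (-4.55), NFATC4 (-4.19), PCK2 (-4.05), AREG (-3.58), MLXIPL (-3.25), KLHL24 (-3.13) and BCHE (-3.04). Those that fell in K562 and rose under the MOLM14 label were NEFH (3.63), CD3EAP (3.51), KISS1R (2.72), PUS7 (2.63), UTP20 (2.55), SELPLG (2.51), RRP15 (2.50), KLHL13 (2.39), WDR77 (2.23) and KCNH2 (1.88). These 20 genes were chosen among those whose EVI1 and control libraries did not overlap under either label, so their separation is no further result, and other opposed genes, such as TFPI (-4.85), differed by as much.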

How the results depend on the processing

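The counts of differences called, of calls under each label and of shared and opposed genes stayed within 1.5 times their value under every alternative run. Which direction held more genes did change. Rescaled to a common sum within label, 1073 differences were higher and 1313 lower. In that run 553 genes were up in K562 and down under the MOLM14 label and 449 the other way. Rises and falls numbered 1178 and 998 in K562 and 1020 and 1168 under the MOLM14 label. Without an expression filter 1286 differences were higher and 1522 lower. Leaving out 1 library at a time gave 1183 to 1272 higher and 1080 to 1147 lower differences, 900 to 1065 rises and 981 to 1138 falls in K562, and 1045 to 1200 rises and 881 to 1032 falls under the MOLM14 label. It gave 185 to 223 shared rises, 138 to 173 shared falls, 387 to 453 genes up in K562 and down under the MOLM14 label and 469 to 570 the other way. With the replicate number as a block, 1286 differences were higher and 1163 lower, with 235 and 179 shared and 476 and 571 opposed genes; every library labelled MOLM14 correlated best with its own number (r of 0.14, 0.0996 and 0.065), which held for 1 of 3 numbers in K562. Classes were followed under the 23 alternatives other than separate fits and the filter at a mean of 5 FPKM. Under all of these, 92 of 216 shared rises, 71 of 174 shared falls, 238 of 448 and 288 of 553 opposed genes kept their class. Genes no longer tested counted as lost, as did all 572 on chromosomes 7, 14, 18 and 20 in the run without them. That run alone kept 168 shared rises, 133 shared falls, and 378 and 440 opposed genes. Single genes changed sign as follows, and the cause was not tested. Centred within chromosomes, the difference became -0.21 for CYP51A1, -0.39 for LAMB1, 0.23 for PSMB5 and -0.46 for TFR2, and the K562 effect 0.029 for EIF2AK1, -0.16 for AHSA1, -0.26 for MTHFD1, -0.078 for CHD8, -0.17 for PSME2, 0.070 for PIK3CG and 0.021 for IMPDH1. With quantile normalization the K562 effect became -0.25 for PHLPP2 and 0.081 for RPL22, whose difference became -0.48. With a pseudocount of 0.1 the difference became 0.95 for NEBL and 1.29 for ITIH5, and with one of 5 it became -0.42 for WAS. The 3 libraries per group, the unknown depth and the unexplained marker profile of the libraries labelled MOLM14 limit all results.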
